A study of Mus musculus with 4 samples.

Results

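Interleukin-1 is the best known alarm cytokine of the injured brain, and its pathway was followed here through 8 of the 32285 genes counted: the ligand genes Il1a, Il1b and Il18, the antagonist gene Il1rn, the receptor genes Il1r1 and Il1rap, and the processing genes Casp1 and Nlrp3. They were chosen by their UMI counts per cell class and library, which showed sending and receiving classes and how few cells held the transcripts. The levels by class, the share of each class and the concentration in few cells are therefore a description, and no test was made on them. The data were single-cell RNA counts (a droplet method that reads the 3' end of each transcript) from the infarct core of the sensory cortex with a margin of about 2 mm, taken from male C57BL/6N mice aged 10 months. The mice formed 4 groups, which had sham surgery with an isotype control antibody, dMCAO stroke with the isotype antibody, dMCAO stroke with anti-VCAM1, and dMCAO stroke with anti-VLA4, with antibody given for 10 weeks in every group. VCAM1 is an adhesion molecule of endothelium and VLA4 is the integrin on leukocytes that binds it. Each group was 1 library of 4 or 5 pooled mice, so animal, library and treatment cannot be told apart, and every interval below covers counting error only. Live cells had been stained for CD31, a vessel marker, and CD45, a leukocyte marker, and the labels do not say in which proportion the stained cells were collected, so shares of cell types are shares of what was loaded.

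Interleukin-1 alpha and interleukin-1 beta bind the same receptor, encoded by Il1r1, which signals only together with the accessory protein encoded by Il1rap; the antagonist encoded by Il1rn occupies the receptor without signalling. Interleukin-1 beta and interleukin-18 are made as inactive precursors and are cut by caspase-1 (Casp1) in the inflammasome that the sensor NLRP3 assembles, whereas the interleukin-1 alpha precursor can already signal. In brain, microglia and the macrophages of the brain's borders are known sources of both ligands, and endothelial cells, above all those of venules, are known receivers. Transcript counts do not show cleavage or release of any of these proteins.

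Il1a and Il1b are neighbours on mouse chromosome 2, both on the minus strand. In the GRCm38 annotation Il1a lies at chr2:129299610-129309972 and Il1b at chr2:129364570-129371139, which leaves a gap of 54597 bp. The 250 bases before each start (RefSeq, GRCm38.p6, minus strand, Il1a at chr2:129309973-129310222 and Il1b at chr2:129371140-129371389) are shown because the class with the largest share of their transcripts differed between these neighbours in 2 libraries, sham and stroke isotype. Capitals mark matches to 5 motifs. The letters searched on both strands were GGG and CC with any 5 bases between them for NF-kappaB, TGANTCA for AP-1, TTGCNNAA for C/EBP and GAGGAA for PU.1, and TATAAA for the TATA box was searched on the gene's strand only.
Il1a: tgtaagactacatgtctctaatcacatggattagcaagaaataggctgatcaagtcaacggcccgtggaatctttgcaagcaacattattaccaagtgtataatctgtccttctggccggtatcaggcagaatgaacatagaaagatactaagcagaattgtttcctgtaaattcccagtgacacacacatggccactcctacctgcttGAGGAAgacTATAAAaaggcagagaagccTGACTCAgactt
Il1b: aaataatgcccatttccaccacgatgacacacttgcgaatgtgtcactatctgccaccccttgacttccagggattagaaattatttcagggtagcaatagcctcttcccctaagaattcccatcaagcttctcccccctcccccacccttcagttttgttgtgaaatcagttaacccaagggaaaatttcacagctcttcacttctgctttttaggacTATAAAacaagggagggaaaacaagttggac
The Il1a window held a PU.1 match at position -41, a TATA box match at -32 and an AP-1 match at -12 from the start, and none of them overlapped. The Il1b window held only a TATA box match, at -31. Of the 32851 promoter windows of this length in the same table, 6.75% held the AP-1 letters, 23.3% those of PU.1, 7.59% the TATA box letters, 45.8% those of NF-kappaB and 9.56% those of C/EBP. A match is a string of letters and not a binding site, and longer-range elements lie outside these windows.

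The libraries held between 1541 and 6361 barcodes and between 10008987 and 34721356 UMIs (unique transcript molecules). After filters and doublet removal 1516 to 6209 cells stayed per library, with a median of 4516.5 to 5466 UMIs. Cells were clustered without the 8 genes, and clusters took a class name from marker genes only. The sham and stroke isotype libraries shared 59 barcodes, 3.83% of the smaller library, whereas the other pairs shared 1 to 8. Of the shared barcodes 53 were kept in both libraries, with a median of 18200 UMIs in sham and 603 in stroke isotype, and 45 took the same class in both. Values without shared barcodes are given wherever they moved. The blockade libraries held a larger share of endothelial-like cells, 53.8% under anti-VCAM1 and 52.4% under anti-VLA4, against 36.4% in sham and 23.1% in stroke isotype, and no cluster took a neuron, oligodendrocyte or monocyte name. Levels are therefore given per class as UMIs per 1000000 UMIs of that class (CPM). Median UMIs per microglia-like cell were 7339.5 in sham, 6082 in stroke isotype, 5308 under anti-VCAM1 and 5192 under anti-VLA4, and shares of cells with a UMI are therefore also given after thinning each cell to 1000 UMIs.

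The ligand gene Il1a and the receptor gene Il1r1 lay mostly in different classes. Microglia-like cells held 94.6% of the Il1a UMIs of the sham library, 93.3% in stroke isotype, 97.6% under anti-VCAM1 and 98.5% under anti-VLA4. Il1b was spread over more myeloid classes: border-macrophage-like cells held 58.6%, 43.3%, 24.3% and 37.0% of it in the same order of libraries, and dendritic-like cells 26.3%, 34.2%, 28.0% and 16.6%. The share in microglia-like cells was 8.56% in sham, 19.7% in stroke isotype, 37.7% under anti-VCAM1 and 39.1% under anti-VLA4. These shares also depend on how many cells of each class were loaded: the blockade libraries held 66 and 93 border-macrophage-like cells against 118 in sham and 206 in stroke isotype. Il1r1 lay on the receiving side, with 92.1%, 71.8%, 88.6% and 83.7% of its UMIs in endothelial-like cells.

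**Figure D1:**
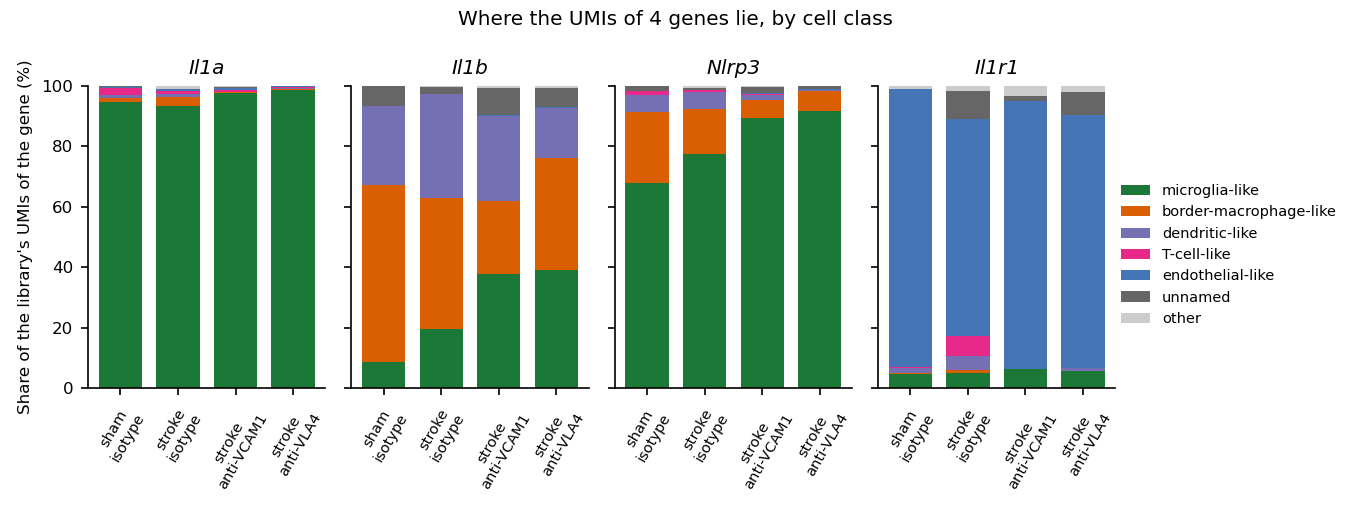
Share of each library's UMIs of Il1a, Il1b, Nlrp3 and Il1r1 (vertical axis, percent) by cell class, with 1 stacked bar per library. Il1a sits almost wholly in microglia-like cells in all 4 libraries, Il1b is divided among border-macrophage-like, dendritic-like and microglia-like cells, and Il1r1 is mostly endothelial.

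Il1a was a widely shared transcript of microglia. Its level in microglia-like cells was 359 CPM in sham (343 to 376, exact Poisson 95% interval), 396 CPM in stroke isotype (383 to 409), 301 CPM under anti-VCAM1 (290 to 312) and 262 CPM under anti-VLA4 (253 to 271). The intervals of the 4 libraries did not overlap, and both blockade libraries lay below both isotype libraries. The log2 ratio (with 1 CPM added to each level) was 0.14 for stroke isotype over sham (0.06 to 0.22), -0.39 for anti-VCAM1 over stroke isotype (-0.47 to -0.33) and -0.59 for anti-VLA4 over stroke isotype (-0.66 to -0.53). Both blockade ratios are taken against the same stroke isotype library, so they are not independent of each other.

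At least 1 Il1a UMI was found in 61.4% of sham microglia-like cells, 57.5% in stroke isotype, 47.5% under anti-VCAM1 and 43.4% under anti-VLA4. At 1000 UMIs per cell the shares were 25.5%, 25.4%, 19.0% and 16.6%, so the isotype libraries were close to each other and the blockade libraries lower at equal depth. In endothelial-like cells, which serve as the background for free RNA, 0.362% to 1.68% of cells held an Il1a UMI at a median of 3818.5 to 4454 UMIs. The transcripts were spread over many cells: 50% of the microglial Il1a UMIs lay in 65 cells in sham, 131 in stroke isotype, 125 under anti-VCAM1 and 155 under anti-VLA4.

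Within the microglia-like class Il1a was measured in 7 clusters with enough UMIs for a ratio. The ratio was below 0 in 6 of 7 clusters for each blockade, with an interval wholly below 0 in 3 of 7 for each, and above 0 in 5 of 7 for stroke isotype over sham. Cluster 5 had 404, 537, 468 and 448 CPM of Il1a in sham, stroke isotype, anti-VCAM1 and anti-VLA4, and its share of the class was 35.7%, 28.1%, 17.9% and 11.97%. With each cluster weighted as in the stroke isotype library, the Il1a ratios were -0.21 for anti-VCAM1, -0.24 for anti-VLA4 and -0.034 for stroke isotype over sham. The blockade differences were thus smaller at a fixed cluster makeup. The stroke value rests on the 7 sham cells of cluster 12, which hold 125 Il1a UMIs; without that cluster the stroke ratio was 0.23.

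Within every library Il1a was higher in microglia-like cells with more transcripts of genes that dissociation of tissue is known to induce, such as Fos, Jun, Egr1 and Hspa1a. The 15 genes of that list summed to 16745 CPM in sham microglia-like cells, 13749 in stroke isotype, 10920 under anti-VCAM1 and 9172 under anti-VLA4. Over the 3 stroke libraries this is the order of Il1a, whereas sham had the highest list sum and less Il1a than stroke isotype. The cells were divided into 5 equal bins by their share of these genes over all libraries. From the lowest to the highest bin Il1a went from 104 to 430 CPM in sham, 125 to 545 in stroke isotype, 110 to 469 under anti-VCAM1 and 95.6 to 467 under anti-VLA4. The highest bin held 39.1% of the class in sham, 26.6% in stroke isotype, 16.4% under anti-VCAM1 and 13.3% under anti-VLA4. Within the bins, from the lowest up, the Il1a ratio was -0.18, -0.29, -0.22, -0.09 and -0.22 for anti-VCAM1 over stroke isotype, and -0.38, -0.23, 0.05, -0.44 and -0.22 for anti-VLA4. For stroke isotype over sham it was 0.27, 0.02, 0.36, 0.18 and 0.34. The blockade ratios were below 0 in 9 of the 10 bins, with 0.046 (-0.094 to 0.19) in the other, and all were smaller in size than over the class as a whole. For anti-VCAM1 the interval also held 0 in the lowest bin (-0.55 to 0.18) and the next to highest (-0.21 to 0.03). The part of the dissociation genes in the Il1a difference was not tested.

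**Figure D2:**
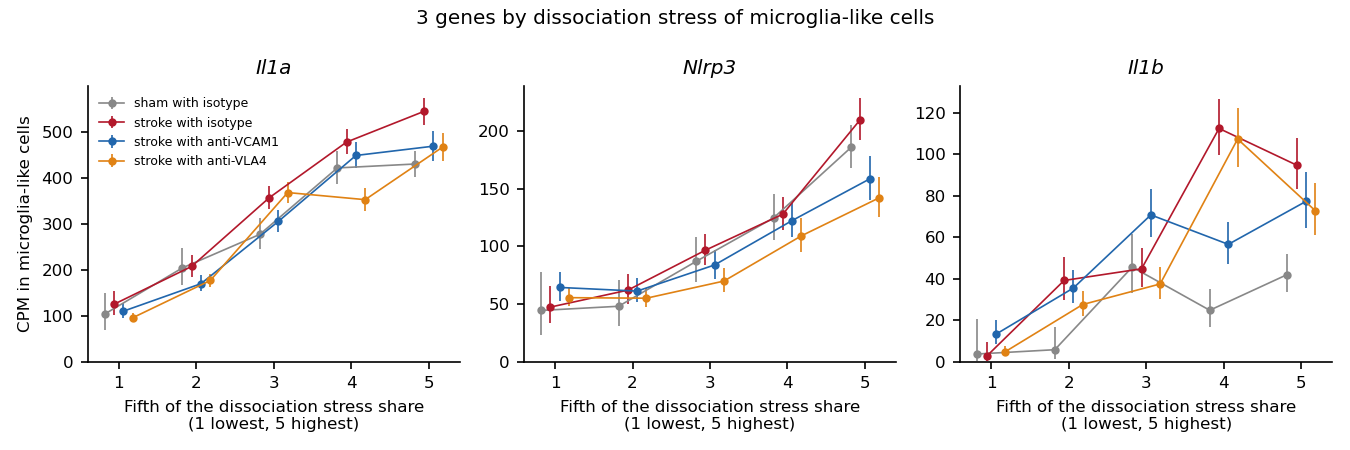
Level of Il1a, Nlrp3 and Il1b (CPM, vertical axis) in microglia-like cells by bin of the dissociation list share (5 bins, horizontal axis, lowest to highest), with 1 line per library and exact Poisson 95% bars. Il1a is several times higher in the highest than in the lowest bin of every library, from 104 to 430 CPM in sham and from 95.6 to 467 CPM under anti-VLA4.

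Il1a outside microglia came from few cells. Border-macrophage-like cells had 33.5 CPM in sham (30 UMIs), 90.8 CPM in stroke isotype (123 UMIs), 22.1 CPM under anti-VCAM1 (10 UMIs) and 40.3 CPM under anti-VLA4 (22 UMIs). The log2 ratios were 1.41 (0.85 to 2.06) for stroke isotype over sham, -1.99 (-3.14 to -1.11) for VCAM1 blockade and -1.15 (-1.90 to -0.51) for VLA4 blockade. In stroke isotype 10 cells held 87.0% of these UMIs and a single cell held 32, and after thinning the ratio was -0.73 for stroke isotype over sham and 1.08 for anti-VLA4, so neither direction held. Without shared barcodes the stroke ratio was 2.36. Endothelial-like cells held 2, 22, 24 and 16 Il1a UMIs in the 4 libraries, 10 of the 22 in 1 stroke isotype cell and 12 of the 24 in 1 anti-VCAM1 cell. T-cell-like cells held 46, 35, 17 and 7 Il1a UMIs, or 84.6, 31.0, 33.2 and 8.82 CPM, with summed microglia markers of 3385, 1130, 2146 and 480 CPM, and 25 of the 46 sham UMIs lay in 1 cell. The part of those microglia transcripts in the T-cell-like Il1a was not tested.

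Il1b was high in few cells. In microglia-like cells its level was 32.7 CPM in sham (28.0 to 38.1), 71.6 CPM in stroke isotype (66.3 to 77.3), 50.9 CPM under anti-VCAM1 (46.6 to 55.5) and 42.5 CPM under anti-VLA4 (39.1 to 46.2). Stroke isotype was highest and sham lowest, with the blockade libraries between them. The log2 ratio was 1.11 for stroke isotype over sham (0.88 to 1.38), -0.49 for anti-VCAM1 over stroke isotype (-0.66 to -0.33) and -0.74 for anti-VLA4 over stroke isotype (-0.92 to -0.59). Il1b UMIs were found in 5.07% of sham microglia-like cells, 8.27% in stroke isotype, 4.19% under anti-VCAM1 and 4.07% under anti-VLA4. At 1000 UMIs per cell the shares were 1.60%, 4.10%, 1.90% and 1.90%. The background in endothelial-like cells was 0.0798% to 0.459% of cells.

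The microglial value rested on a handful of cells. The 10 cells with most UMIs held 75.4% of the microglial Il1b UMIs in sham, 34.4% in stroke isotype, 54.7% under anti-VCAM1 and 41.1% under anti-VLA4, and 50% of them lay in 4, 19, 9 and 15 cells. Leaving out the cell with most UMIs in each library gave a ratio of 1.35 for stroke isotype over sham, and leaving out shared barcodes gave 1.41. When cells were named individually from their markers without clusters, the microglial Il1b level was 167 CPM in sham and 159 CPM in stroke isotype and the ratio was -0.067, so the stroke difference depended on which cells were counted as microglia. The lowest bin of the dissociation list held 1, 2, 23 and 17 Il1b UMIs in the 4 libraries. In the other bins, from lower to higher, the Il1b ratio was 2.57, -0.03, 2.14 and 1.16 for stroke isotype over sham, -0.14, 0.65, -0.98 and -0.29 for anti-VCAM1, and -0.49, -0.25, -0.066 and -0.37 for anti-VLA4. The interval lay above 0 in 3 of these 4 bins for the stroke comparison, and for anti-VCAM1 it lay above 0 in 1 bin (0.28 to 1.05) and below 0 in another (-1.31 to -0.68).

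**Figure D3:**
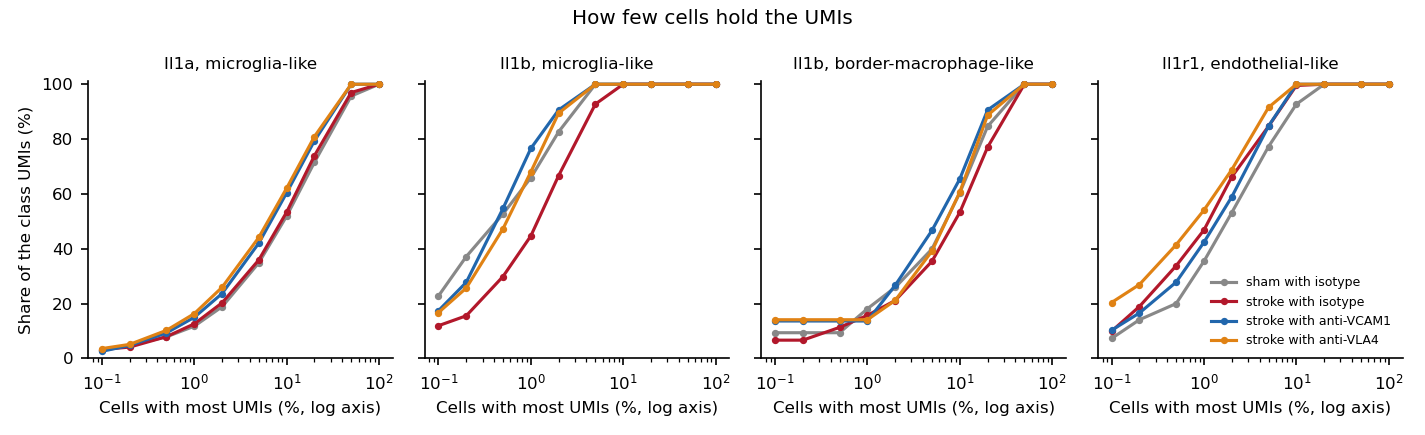
Cumulative share of a class's UMIs (vertical axis, percent) against the percent of its cells, ordered from most UMIs down (horizontal axis), with 1 line per library, for Il1a and Il1b in microglia-like cells, Il1b in border-macrophage-like cells and Il1r1 in endothelial-like cells. In microglia-like cells the top 1% of cells hold 11.7% to 16.3% of the Il1a UMIs and 44.6% to 76.6% of the Il1b UMIs.

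Much of the microglial Il1b lay in cluster 12, led by Cst7, Gpr84 and Hcar2, genes known from activated microglia. The cluster held 7 cells in sham, 76 in stroke isotype, 106 under anti-VCAM1 and 165 under anti-VLA4, which is 1.01%, 5.15%, 5.85% and 6.72% of the class. Its Il1b level was 514, 467, 317 and 217 CPM, and it held 25.7%, 46.8%, 55.3% and 46.9% of the microglial Il1b UMIs. Both blockade libraries thus had at least the stroke isotype share of these cells and a lower Il1b level within them. Il1a in the same cluster was 1496 CPM in the 7 sham cells and 337, 316 and 275 CPM in the stroke libraries. Without cluster 12 the Il1b ratio was 0.71 for stroke isotype over sham and -0.70 for anti-VCAM1. Across the 5 clusters with enough Il1b UMIs the ratio was below 0 in 4 of 5 for each blockade, with an interval wholly below 0 in 3 of 5 under anti-VCAM1 and in 4 of 5 under anti-VLA4. The exception was cluster 0, at 0.62 (-0.081 to 1.49) for the former and 1.26 (0.68 to 2.09) for the latter, where 970 anti-VLA4 cells held 141 UMIs and 340 stroke isotype cells 21. The ratio was above 0 in 4 of 5 for stroke isotype over sham, with 2 intervals wholly above 0.

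Border-macrophage-like cells were named from F13a1, Pf4, Ms4a7 and Mrc1, 4 of the 8 markers of that class. Border macrophage markers summed there to 3807, 3626, 3441 and 4673 CPM in sham, stroke isotype, anti-VCAM1 and anti-VLA4. Microglia markers summed to 4072, 4175, 4408 and 2688 CPM, and monocyte markers to 750, 951, 726 and 421 CPM. Which cells of the class hold those transcripts was not tested. The Il1b level in the class was 1278 CPM in sham, 1077 CPM in stroke isotype, 728 CPM under anti-VCAM1 and 987 CPM under anti-VLA4. Between 34.4% and 49.5% of these cells held an Il1b UMI. The log2 ratio was -0.25 for stroke isotype over sham (-0.36 to -0.13), -0.56 for VCAM1 blockade (-0.74 to -0.39) and -0.13 for VLA4 blockade (-0.27 to 0.02). The stroke ratio was 0.15 with cells named individually and -0.44 without shared barcodes, and the 10 cells with most UMIs held 33.2% to 79.4% of the class's Il1b. Endothelial markers in this class summed to 40.2, 36.2, 309 and 1957 CPM in the 4 libraries, and without the cells holding at least 5 such UMIs the anti-VLA4 ratio was 0.10. Dendritic-like cells had 1109, 1328, 1428 and 1265 CPM of Il1b in 31, 78, 24 and 19 cells, and 1 anti-VLA4 cell held 126 of the 241 UMIs there. T-cell-like cells held no Il1b UMI in any library, which allows up to 5.52 CPM in sham, 2.66 in stroke isotype, 5.85 under anti-VCAM1 and 3.78 under anti-VLA4.

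In 3 libraries Il1a was found more often in microglia-like cells that held Il1b than in those that did not, with counting intervals that do not overlap. At 1000 UMIs per cell Il1a was found in 72.7% of the 11 Il1b-holding sham cells and in 24.7% of the others. The shares were 45.8% of 59 cells against 24.5% in stroke isotype, 20.6% of 34 cells against 18.9% under anti-VCAM1, and 32.6% of 46 cells against 16.3% under anti-VLA4. The anti-VCAM1 shares lay within each other's counting intervals (8.70% to 37.9% and 17.1% to 20.8%). In border-macrophage-like cells Nlrp3 went with Il1b: at equal depth it was found in 38.5%, 24.3%, 33.3% and 14.3% of Il1b-holding cells against 9.21%, 11.6%, 9.62% and 7.35% of the others. The counting intervals of the 2 shares stood apart in sham and overlapped in the stroke libraries.

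Il1rn, which encodes the receptor antagonist, was near the detection limit. All kept cells held 14 Il1rn UMIs in sham, 23 in stroke isotype, 30 under anti-VCAM1 and 15 under anti-VLA4. Microglia-like cells held 0, 5, 14 and 9 of them, border-macrophage-like cells 8, 7, 3 and 4, and dendritic-like cells 4, 8, 6 and 0. The 0 in sham microglia-like cells allows up to 0.588 CPM, and stroke isotype had 0.540 CPM, so a difference between these libraries could not be detected.

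Nlrp3, the inflammasome sensor gene, was lower in microglia-like cells of both blockade libraries. It stood there at 131 CPM in sham (121 to 141), 126 CPM in stroke isotype (119 to 133), 96.8 CPM under anti-VCAM1 (90.8 to 103) and 79.1 CPM under anti-VLA4 (74.5 to 84.1). The isotype libraries overlapped and both blockade libraries lay below them. The log2 ratio was -0.06 for stroke isotype over sham (-0.20 to 0.08), -0.37 for VCAM1 blockade (-0.50 to -0.25) and -0.66 for VLA4 blockade (-0.79 to -0.55). At 1000 UMIs per cell 10.2%, 10.6%, 8.89% and 7.60% of cells held a UMI. Within the 5 bins of the dissociation list the ratio was 0.44, -0.02, -0.20, -0.06 and -0.40 for anti-VCAM1 and 0.23, -0.17, -0.46, -0.23 and -0.56 for anti-VLA4. Under anti-VCAM1 the interval lay below 0 only in the highest bin (-0.62 to -0.19). Under anti-VLA4 it did so only in the middle bin (-0.76 to -0.17) and the highest (-0.78 to -0.35). The intervals of all other bins held 0. In border-macrophage-like cells Nlrp3 was 259 CPM in sham, 165 in stroke isotype, 150 under anti-VCAM1 and 139 under anti-VLA4. The stroke ratio there was -0.65 (-0.92 to -0.38) and became 0.28 with cells named individually.

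Casp1 and Il18 had ratios near 0 in microglia-like cells. Casp1, the protease gene, stood at 44.1, 41.2, 41.5 and 41.2 CPM in microglia-like cells of sham, stroke isotype, anti-VCAM1 and anti-VLA4, with ratios of -0.10 (-0.34 to 0.14), 0.01 (-0.19 to 0.22) and 0.00 (-0.19 to 0.19). It was also present in T-cell-like cells, at 60.7, 71.8, 56.6 and 78.1 CPM, and in border-macrophage-like cells, at 64.8, 38.4, 57.4 and 62.3 CPM. There stroke isotype was lowest, with a ratio of -0.74 over sham (-1.32 to -0.19). Il18 was 86.1, 87.0, 94.2 and 93.8 CPM in microglia-like cells, with ratios of 0.02 (-0.15 to 0.19), 0.11 (-0.02 to 0.25) and 0.11 (-0.02 to 0.24). Microglia-like cells held 74.9% to 80.7% of all Il18 UMIs. The intervals of these microglial ratios leave room for changes of up to 0.34 in size on the log2 scale.

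**Figure D4:**
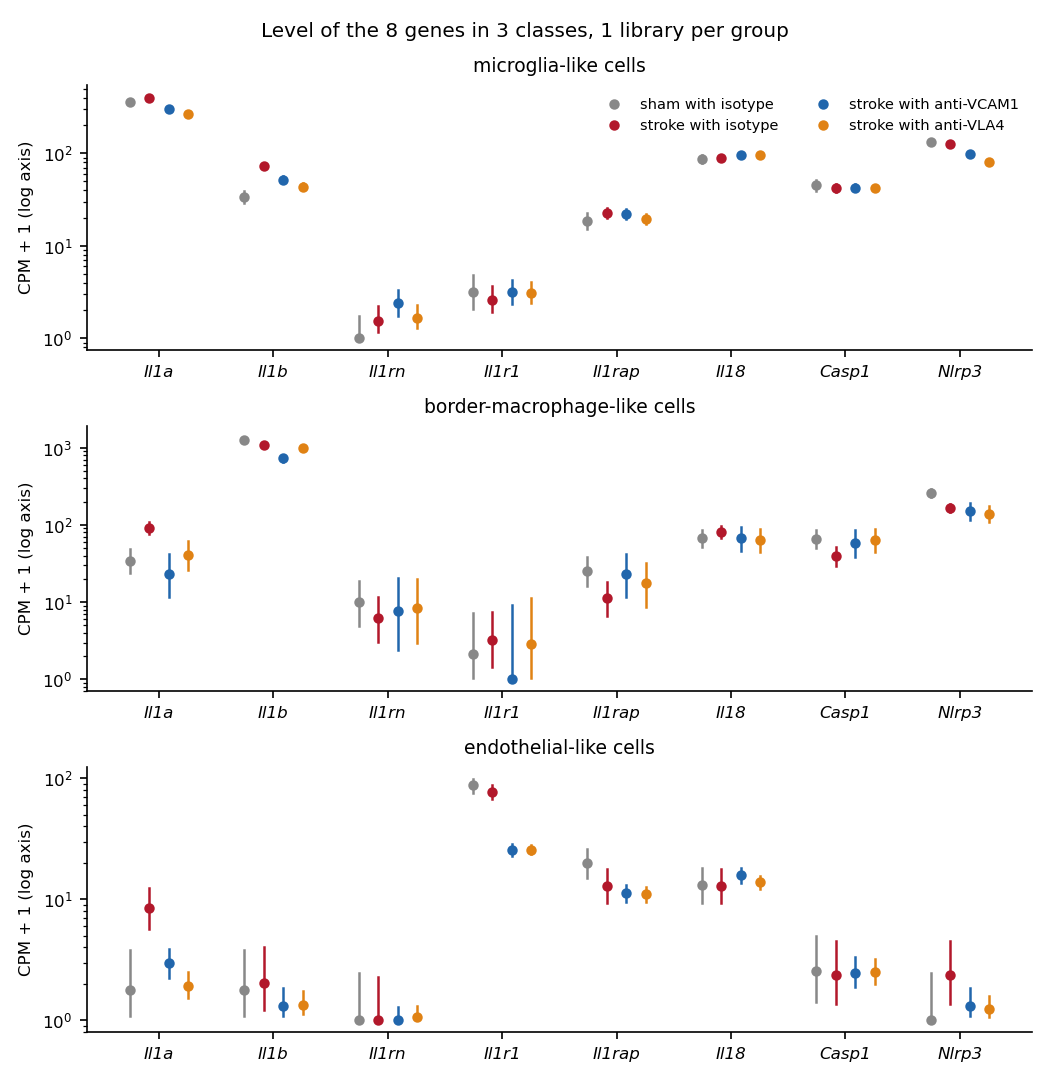
Level of the 8 genes (CPM + 1, log axis) in microglia-like, border-macrophage-like and endothelial-like cells, with 1 point per library and exact Poisson 95% bars. Il1a and Nlrp3 are lower in the blockade libraries in microglia-like cells, Il18 and Casp1 have close values there, and Il1r1 in endothelial-like cells is 76.0 CPM in stroke isotype and 24.6 and 24.8 CPM in the blockade libraries.

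Il1r1, the signalling receptor gene, was the member with the lowest ratios under blockade among those past 100 UMIs in endothelial-like cells. Its level there was 86.1 CPM in sham (75.1 to 98.3), 76.0 CPM in stroke isotype (66.3 to 86.6), 24.6 CPM under anti-VCAM1 (21.9 to 27.5) and 24.8 CPM under anti-VLA4 (22.5 to 27.2). The isotype libraries overlapped, and the blockade libraries overlapped each other far below them. The log2 ratio was -0.18 for stroke isotype over sham (-0.46 to 0.09), -1.59 for VCAM1 blockade (-1.88 to -1.37) and -1.58 for VLA4 blockade (-1.85 to -1.38). At least 1 UMI was found in 13.04%, 10.2%, 6.86% and 6.12% of cells, and in 0.881% to 1.59% of microglia-like cells, which serve as the background. At 1000 UMIs per cell the endothelial shares were 5.04%, 4.52%, 1.98% and 1.93%.

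Few endothelial cells held the receptor's transcripts. The 10 cells with most UMIs held 48.2% of them in sham, 56.8% in stroke isotype, 23.5% under anti-VCAM1 and 32.1% under anti-VLA4. Cluster 23 was led by Vwf, Il1r1 itself, Eln and Slc38a5, of which Vwf and Slc38a5 are venous genes. This cluster stood at 1251, 1838, 896 and 2095 CPM and held 40.0%, 38.3%, 1.66% and 19.4% of the class's Il1r1 UMIs. It was 17 of the endothelial-like cells in sham, 9 in stroke isotype, 2 under anti-VCAM1 and 9 under anti-VLA4, or 3.08%, 1.38%, 0.0798% and 0.277%. Within cluster 23 the ratio was 0.19 for anti-VLA4 over stroke isotype (-0.27 to 0.64), from 9 cells in each library, and the 2 anti-VCAM1 cells held 5 UMIs. Cluster 3 was next, at 75.4, 120, 64.8 and 69.4 CPM, and made up 43.3%, 33.6%, 15.8% and 14.4% of the class. There the ratio was 0.66 for stroke isotype over sham (0.25 to 1.10), -0.88 for VCAM1 blockade (-1.27 to -0.50) and -0.78 for VLA4 blockade (-1.14 to -0.44). In cluster 4 it was -1.97 for stroke isotype over sham (-3.01 to -1.09), the opposite direction to cluster 3. For the blockades it was 0.27 for anti-VCAM1 (-0.56 to 1.22) and -0.23 for anti-VLA4 (-1.07 to 0.69), with intervals that hold 0.

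At a fixed cluster makeup, with each cluster weighted as in stroke isotype, the class ratio was -0.69 for anti-VCAM1, -0.27 for anti-VLA4 and 0.15 for stroke isotype over sham. Without cluster 23 it was -0.95 for anti-VCAM1 and -1.21 for anti-VLA4. The ratios were smaller in size under both settings than over the class as a whole, and the order of the antibodies turned between them. The weighted anti-VCAM1 value takes its level of cluster 23 from 2 cells with 5 Il1r1 UMIs, and the anti-VLA4 value from 9 cells. Nothing is therefore read from the order. Clusters 6, 7 and 13 were 6.16%, 3.26% and 0.725% of the class in sham and 19.1%, 15.1% and 6.52% under anti-VLA4. They held 63, 42 and 8 of the 654 stroke isotype cells and 487, 358 and 129 of the 2506 anti-VCAM1 cells. In cluster 13, 4 pericyte markers were also detected. Red blood cell genes summed to 13209 CPM in sham and 12766 in stroke isotype endothelial-like cells and to 4203 and 4615 with the blockades, and pericyte markers to 130, 179, 442 and 505 CPM. With haemoglobin, mitochondrial and ribosomal genes and Malat1 left out of the total, the Il1r1 ratios were -1.57 and -1.56. Whether the cells loaded or the vessels themselves differed was not tested.

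**Figure D5:**
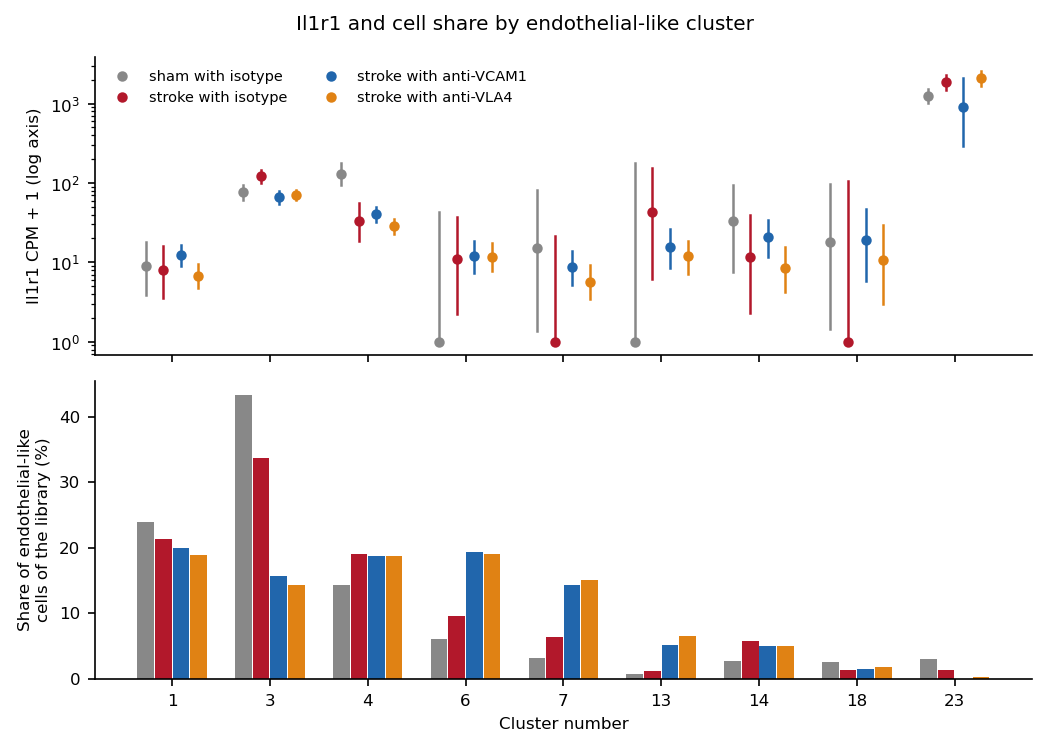
Il1r1 level (CPM + 1, log axis) in each endothelial-like cluster by library (top) and each cluster's share of the endothelial-like cells in percent (bottom). Cluster 23 has the highest level in every library, from 896 to 2095 CPM, and its share is 3.08% in sham and 0.0798% under anti-VCAM1.

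Il1r1 was also set against venous genes cell by cell. Cells with at least 2 UMIs of a 10-gene venous list that leaves out Il1r1 stood at 103, 88.2, 28.2 and 27.9 CPM, against 8.62, 2.40, 1.77 and 4.01 CPM in the other endothelial-like cells. The list holds widely expressed genes such as Tmsb10, so it was narrowed, after its values were seen, to Slc38a5, Nr2f2, Vwf, Ackr1 and Lcn2. Cells with at least 2 UMIs of these stood at 188, 197, 53.4 and 51.5 CPM of Il1r1, and the others at 35.2, 9.03, 9.34 and 9.18 CPM. They were 148, 206, 651 and 915 cells, or 26.8%, 31.5%, 26.0% and 28.1% of the class, and held 72.7%, 92.3%, 75.2% and 76.6% of its Il1r1 UMIs, so this is a much wider set than cluster 23. Within the venous-gene cells the ratio was -1.87 for VCAM1 blockade (-2.16 to -1.61) and -1.92 for VLA4 blockade (-2.19 to -1.68). In the other cells it was 0.044 (-0.73 to 0.90) and 0.022 (-0.73 to 0.86), intervals wide enough to hold a change of over 1.5 times. The share of venous-gene cells lay between 26.0% and 31.5% in the 4 libraries while their Il1r1 level was lower under both blockades. For anti-VLA4 their ratio and that of cluster 23 differ in sign. The rule counts raw UMIs, and the venous-gene cells had medians of 4660.5, 4318, 5114 and 5678 UMIs. The 10-gene list itself had median ratios of -0.19 under anti-VCAM1 and -0.46 under anti-VLA4, against -0.06 and -0.07 over all genes measured. The set is thus not matched between libraries, and the part of depth was not tested.

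Il1rap, the accessory chain, was found at a low level in senders and receivers alike. In microglia-like cells it stood at 17.5, 21.7, 21.1 and 18.5 CPM in sham, stroke isotype, anti-VCAM1 and anti-VLA4, and in endothelial-like cells at 18.8, 11.98, 10.3 and 9.98 CPM. The endothelial ratios were -0.61 (-1.32 to 0.01), -0.21 (-0.77 to 0.36) and -0.24 (-0.79 to 0.30), all with intervals that include 0. In border-macrophage-like cells 22, 14, 10 and 9 UMIs gave 24.6, 10.3, 22.1 and 16.5 CPM.

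A gene was called here when its level differed at least 2-fold between libraries, with at least 20 UMIs over both. In microglia-like cells 1 of 7 members measured that well, Il1b, was called for stroke isotype over sham, where 1.22% of all genes were, and 0 of 7 for VCAM1 blockade (0.797% of all genes) and for VLA4 blockade (0.866%). In endothelial-like cells Il1a was called for stroke isotype over sham, 1 of 4 members (2.28% of all genes). Il1a and Il1r1 were called for each blockade, 2 of 5 members, where 2.33% of all genes were under anti-VCAM1 and 3.13% under anti-VLA4. In border-macrophage-like cells Il1a was called higher and Il1rap lower for stroke isotype over sham, 2 of 6 members (4.80% of all genes). Both were called in the opposite direction for anti-VCAM1, 2 of 6 (7.31%), and Il1a was called lower for anti-VLA4, 1 of 6 (9.14%). Since these contrasts were used to choose the genes, nothing is read from the counts.

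Around the members, other interleukin-1 family genes marked further classes. Il1r2, the decoy receptor that binds ligand without signalling, was at 242, 291, 157 and 94.5 CPM in dendritic-like cells. It was not confined to that class. In the unnamed cluster 20, the 26 cells with more S100a8 and S100a9 than CD3 and Trdc UMIs held 165 Il1r2 UMIs among 182812. Il1rl2, the receptor for interleukin-36, was level in microglia-like cells at 51.9, 53.5, 54.0 and 54.4 CPM. Sigirr, an inhibitory receptor of the family, stood at 53.6, 59.9, 61.6 and 57.0 CPM in endothelial-like cells. The receptor for interleukin-18 was found in T-cell-like cells, with Il18r1 at 142, 215, 146 and 105 CPM and Il18rap at 88.3, 106, 64.4 and 42.8 CPM, so the microglial Il18 and its receptor lay in different classes. Of the other family genes 0 of 5, 0 of 7 and 0 of 8 measured in microglia-like cells were called in the 3 comparisons. Over all genes measured there 1.22%, 0.797% and 0.866% were called, so nothing is read from the absence of calls.

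In microglia-like cells the other inflammasome genes gave 0 calls of 15, 15 and 14 measured. Over all genes measured there the shares called were 1.22% for stroke isotype over sham, 0.797% under anti-VCAM1 and 0.866% under anti-VLA4. These shares are the background for every list in this paragraph, and nothing is read from the absence of calls. Casp4, the caspase of the non-canonical inflammasome, was lower under both blockades, with 192 CPM in stroke isotype, 119 under anti-VCAM1 and 96.0 under anti-VLA4 (ratios -0.68 and -0.99). The adaptor gene Pycard was higher, at 0.34 and 0.27, and the sensor gene Naip5 had 0.15 and 0.26, and the list's medians were 0.03 and 0.07. Of the 20 interleukin-1 receptor signalling genes, all measured, 1 was called, lower under anti-VLA4: Nfkbiz, an NF-kappaB cofactor, at 405 CPM in stroke isotype and 202 CPM under anti-VLA4 (-1.001). The NF-kappaB inhibitor genes Nfkbia and Tnfaip3 had ratios of -0.78 and -0.76 in that comparison. Among the other microglial cytokines 2 of 10 measured were called higher for stroke isotype over sham, the chemokine gene Cxcl2 at 3.86 and the growth factor gene Csf1 at 1.02. With anti-VLA4 2 of 10 were called lower, Cxcl2 at -3.31 and Tnf at -1.15, and under anti-VCAM1 2 of 11 lower, Cxcl2 at -1.40 and Cxcl10 at -1.27, and 1 of 11 higher. The list's median was -0.69 under anti-VLA4, against 0.05 over all genes measured. Cxcl2 stood at 0.196 CPM in sham, 16.3 in stroke isotype, 5.57 under anti-VCAM1 and 0.747 under anti-VLA4. Its sham and anti-VLA4 levels were below the 1 CPM added, so the size of its ratios depends on that setting. The order of the libraries was that of Il1b. The dissociation list sums in these cells had the same order over the stroke libraries, and their part in these ratios was not tested.

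In endothelial-like cells the genes known to respond to interleukin-1 had medians of -0.56 under anti-VCAM1 and -0.55 under anti-VLA4, against -0.06 and -0.07 over all genes measured. For stroke isotype over sham the median of the 5 genes measured was -0.54, against -0.02, so this median was lower in that comparison too. Of these genes 1 of 5 was called lower for stroke isotype over sham (2.28% of all genes were called), 1 of 7 under anti-VCAM1 (2.33%) and 1 of 6 under anti-VLA4 (3.13%). Vcam1 itself, the adhesion gene whose product 1 of the antibodies binds, had ratios of -0.59 and -1.09, the prostaglandin enzyme gene Ptgs2 -0.66 and -0.91, and the adhesion gene Icam1 -0.56 and -0.62. For stroke isotype over sham Vcam1 was at -0.98, so it was also lower after stroke than in sham. Icam1 at -0.05 (-0.51 to 0.42) and Nfkbia at 0.06 (-0.03 to 0.15) had intervals that hold 0 in that comparison, so not every gene of the list was lower.

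The genes closest to the members in pattern were sought over the 20 pairs of class and library with at least 50 cells, among 12474 genes, by the Pearson correlation of log2(CPM + 1). These correlations mostly follow which class a gene belongs to. Retreg1 (0.957) and Clgn (0.954) were among the genes closest to Il1a, and Il1b was closest to Tmem150b (0.981), Wfdc17 (0.959) and Ifi204 (0.959). None is given for Il1rn, which had 82 UMIs in all. Il1r1 was closest to Vsig10 (0.934), Gm41077 (0.910) and 1110012L19Rik (0.898).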

How the data were processed

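The authors deposited 1 gene-by-barcode count matrix per library, with UMI counts that per the file headers came from Cell Ranger 7.0.1; the submitters' processing notes name Cell Ranger 6.0.0, Seurat 4.3.0.1 and the builds mm10 and GRCh38 without their roles. Barcodes with at least 500 UMIs, 200 genes and at most 10% mitochondrial UMIs were kept, and doublets marked by Scrublet (expected rate 0.05) were removed, which were 0.590% to 1.96% of a library. Cells were normalised, reduced to 30 principal components of 2000 variable genes and clustered with Leiden at resolution 1, in scanpy 1.11.5 and leidenalg 0.10.2 under Python 3.11.15. The 8 genes, the listed pathway genes and mitochondrial, ribosomal and haemoglobin genes did not enter the clustering. Clusters were given a class name where at least 3 markers of that class were detected in at least 25% of their cells and no other class was ahead; 2 clusters stayed unnamed, 1 of 76 cells with neutrophil and T cell genes and 1 of 40 cells led by Cd300e and Treml4, and this rule was settled after the clusters were seen.

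UMIs were summed per class and library. A level is in CPM, the counts per 1000000 UMIs of the class, with an exact Poisson 95% interval. A log2 ratio has 1 CPM added to each level; its interval is conditional binomial and has no CPM added. Shares of cells have exact Clopper-Pearson intervals, and a count of 0 was read against a limit of 3 counts. With 1 library per group no p-value was computed. The ratio code was tested on simulated Poisson counts of class sums, the model that the interval assumes. That test cannot show how the intervals fare where few cells hold the UMIs.

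The members, gene lists and comparisons were chosen with earlier results of these data known. Genes named beside the members are, for each list, up to 3 of largest ratio holding at least 100 UMIs, the 3 genes closest in pattern (1 of those for Il1a is not reported here, and none for Il1rn), and family genes whose levels show a class. Alternatives covered cell filters, doublets, clustering, naming cells one by one, scaling, pseudocount, thinning, single cells and dissociation genes. Leaving out shared barcodes or single clusters, weighting clusters, ratios within bins of the dissociation list, the narrowed venous list and the split of the unnamed cluster were chosen after seeing the data. Promoter windows are from RefSeq and positions from GENCODE M21.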

Additional observations from a re-analysis of the deposited data

Results flagged for a closer look

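Il1b moved in opposite directions in 2 myeloid classes. For stroke isotype over sham the log2 ratio was 1.11 in microglia-like cells and -0.25 in border-macrophage-like cells, a difference of 1.35, with 1 library on each side. The difference was not tested. With cells named individually from their markers the signs were the other way around, -0.067 in microglia-like and 0.15 in border-macrophage-like cells.

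Il1r1 appeared in an unnamed cluster that the comparisons leave out, cluster 20, with 76 cells led by S100a8 and S100a9 together with Trdc and Il23r. Its level there was 164 CPM in stroke isotype (29 UMIs, 110 to 236) and 415 CPM with anti-VLA4 (39 UMIs, 295 to 568), against 0 UMIs in the 12 sham cells (a limit of 38.2 CPM from 3 counts). With anti-VCAM1 it was 54.5 CPM (6 UMIs).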

How the results depend on the processing

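No paired analysis was possible because each group was 1 library. Of 117 values of the 9 main ratios under other settings, 93 stayed within the counting interval, 22 moved and 2 turned a ratio whose interval excluded 0; Il1r1 (stroke) also went from -0.18, whose interval held 0, to 0.15. Naming each cell on its own markers gave -0.067 for Il1b in microglia-like cells (stroke isotype over sham), -1.16 (anti-VCAM1) and -1.35 (anti-VLA4), and -0.53 for Il1a with anti-VLA4. Thinning gave 1.58, -1.20 and -1.17 for Il1b, -0.49 and -0.75 for Il1a under the blockades, and -1.95 and -1.98 for Il1r1. Without cluster 12, Il1a (stroke) was 0.23 and Il1b 0.71 (stroke) and -0.70 (anti-VCAM1); without cluster 23, Il1r1 was -0.95 and -1.21; without shared barcodes, Il1b (stroke) was 1.41. Weighted clusters gave -0.034, -0.21 and -0.24 for Il1a, 0.28 for Il1b (stroke), and 0.15, -0.69 and -0.27 for Il1r1. The stroke values for Il1a and Il1b rest on 7 sham cells of cluster 12. The anti-VCAM1 value for Il1r1 takes in 2 cells of cluster 23. In border-macrophage-like cells the sign changed after thinning for Il1a (-0.73 stroke, 1.08 anti-VLA4) and Casp1 (-0.038, anti-VLA4), and on own markers for Il1b (0.15) and Nlrp3 (0.28), both stroke over sham. Members called in microglia-like cells were 0 for stroke over sham on own markers or without cluster 12, in place of 1, and 1 for each blockade on own markers or after thinning, in place of 0. In endothelial-like cells they were 0 for stroke over sham on own markers, with doublets kept or after thinning, and 2 with no minimum, in place of 1; 1 for anti-VCAM1 with doublets kept or without cluster 23, and 1 for anti-VLA4 after thinning, in place of 2. The cause of these shifts was not tested. Il1rn and the members with under 20 UMIs in a class could not be compared at this depth.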

Other observations

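The unnamed cluster 20 held Il1b and Il1r1 UMIs in different cells. It was split after its values were seen, by whether a cell held more UMIs of S100a8 and S100a9, which neutrophils express, or of CD3 genes and Trdc, a gamma-delta T cell gene. The 30 cells with more CD3 and Trdc UMIs held all 74 Il1r1 UMIs of the cluster, in 20 cells, and 104 Il18r1 UMIs. By library, Il1r1 was in 0 of 1 such cell in sham, 9 of 13 in stroke isotype, 2 of 5 under anti-VCAM1 and 9 of 11 under anti-VLA4. The 30 cells held no UMI of the decoy receptor gene Il1r2 and 30 Il1b UMIs, all in the sham cell. They held only 5 Il1rap UMIs, in 4 cells, and none of these lay in the 13 stroke isotype cells. The 26 cells with more S100a8 and S100a9 UMIs held 265 Il1b UMIs, 165 of Il1r2, 65 of Il1rap and none of Il1r1. The 20 cells in neither set held 38 Il1b UMIs, 87 of Il1r2, 15 of Il1rap and none of Il1r1. The T-cell-like class itself held 1, 20, 0 and 1 Il1r1 UMIs in sham, stroke isotype, anti-VCAM1 and anti-VLA4, 14 of the 20 in 1 cell. With 1 to 13 cells per library these are counts of cells, and a difference between libraries cannot be told apart from which cells were loaded.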
